A study of Saccharomyces cerevisiae with 36 samples.

Results

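Genes for the carriers that bring peptides and glutathione into a yeast cell, and for the enzymes that break glutathione down, were followed through 36 chemostat cultures of Saccharomyces cerevisiae. They are the 6 lines, of 7122 gene lines in the count tables, whose common name is OPT1 (also called HGT1), OPT2, PTR2, DUG1, DUG2 or DUG3. They were selected on knowledge of measured levels in these cultures, among which OPT2 was known to be far higher under nitrogen limitation, so differences of these 6 genes between nitrogen limitation and another limitation are given as descriptions, without a p-value. Their other comparisons were tested.

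A chemostat holds cells at a fixed growth rate by feeding medium in which 1 nutrient runs short. The MC tagged set (12 libraries) was the strain HAP1-TAP, grown in vessels that the labels call MC. HAP1-TAP is CEN.PK 113-5D in which the regulator Hap1p carries a C-terminal CBP-ProtA purification tag. The DASGIP tagged set (12 libraries) was HAP1-TAP in a DASGIP vessel of 1 L. Parent cells without the tag (CEN.PK 113-5D) in MC vessels made up the MC untagged set (12 libraries). Every set had 4 limitations of 3 libraries: N-lim with 6% glucose, Et-lim with 0.5% ethanol, OxGlu-lim (oxygen and glucose) with 1% glucose, and Glu-lim with 0.75% glucose. Cultures were sampled after readings had been constant for 48 to 60 h. The labels do not say whether the tagged strain was 1 clone, and N-lim cultures differed from Glu-lim cultures in glucose as well as nitrogen.

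Opt1p is a proton-coupled carrier of the plasma membrane that takes up intact glutathione, the main thiol of the cell, with high affinity. Opt2p belongs to the same oligopeptide transporter family and has a less settled substrate, and Ptr2p is the main carrier of di- and tripeptides. Inside the cell Dug2p and Dug3p together cut glutathione into glutamate and the dipeptide Cys-Gly, which the metallopeptidase Dug1p splits. Glutathione holds both nitrogen and sulphur, and yeast can draw on it and on peptides for either element.

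Libraries held 10.7 M to 22.5 M counts (median 16.7 M, where M is 1e6). All 6 members passed the filter on low counts, and the lowest count of a member in any library was 262. Mitochondrially encoded genes took a share of the counts that moved with the limitation, at 9.2 to 16.5% under N-lim, 31.52 to 46.63% under Et-lim, 16.91 to 25.26% under OxGlu-lim and 25.15 to 38.61% under Glu-lim. With library sizes taken from nuclear genes alone, the N-lim difference of OPT2 was 7.18 and the OxGlu-lim difference of PTR2 was 3.07 (log2, both minus Glu-lim), close to the values given for them. Markers of the mating type MATa were present in every library (the receptor gene STE2 at 86.1 to 1059 CPM), and the MATalpha receptor gene STE3 lay between 5.7 and 20.2 CPM. MATalpha pheromone gene MF(ALPHA)1 ranged between 0.349 and 113 CPM and MF(ALPHA)2 between 1.52 and 5.59 CPM, and no mating type is given in the labels. CPM stands for counts per 1e6 of the TMM-scaled library size, and values after ± are SDs of 3 libraries unless an SE is named. In these bulk cultures, fewer cells with a transcript and less of it in each cell cannot be told apart.

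**Figure D1:**
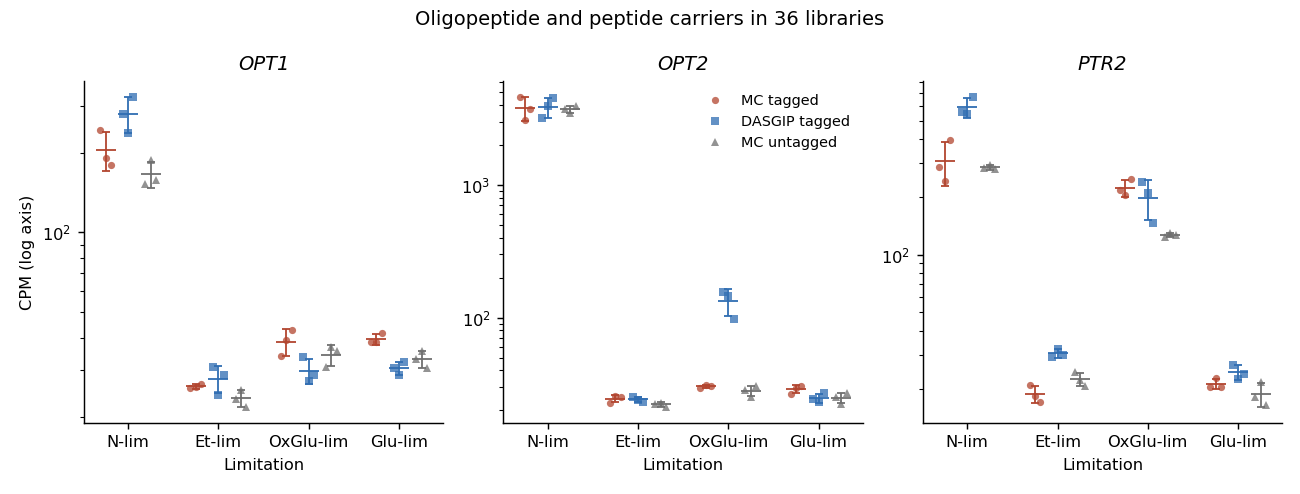
CPM of OPT1, OPT2 and PTR2 on log axes in each of the 36 libraries, grouped by limitation and, within it, by set (circles MC tagged, squares DASGIP tagged, triangles MC untagged). Bars are means with SD of 3 libraries; all 9 N-lim libraries lie above every other library in OPT1 and OPT2, and PTR2 is high under both N-lim and OxGlu-lim.

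OPT2 (YPR194C, chromosome XVI, 924304 to 926937, minus strand, build R64, 1 exon) had the widest range of the 6 genes. Under N-lim it stood at 4630, 3108 and 3713 CPM in MC tagged libraries, at 3180, 3930 and 4519 CPM in DASGIP tagged libraries and at 3717, 3492 and 3912 CPM in MC untagged libraries. Under Glu-lim it stood at 26.7, 29.7 and 30.6 CPM in MC tagged libraries, at 24.3, 23 and 26.8 CPM in DASGIP tagged libraries and at 25.0, 22.5 and 27.0 CPM in MC untagged libraries. The lowest N-lim library was thus at 3108 CPM, against 30.6 CPM in the highest Glu-lim library. The difference between N-lim and Glu-lim averaged 7.19 ± 0.10 (SE, log2) over the 3 sets, a 146-fold difference and the highest of the 6612 genes tested. It was 7.04 ± 0.18 in the MC tagged set, 7.29 ± 0.18 in the DASGIP tagged set and 7.22 ± 0.18 in the MC untagged set. In this comparison 71.7% of all genes tested passed an adjusted p of 0.05. Without TMM scaling the 9 N-lim libraries ran between 4002 and 5879 CPM, against 18.2 to 28.7 CPM in the Glu-lim libraries.

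Under OxGlu-lim OPT2 stood apart in 1 set. It stood at 156, 146 and 98.4 CPM in DASGIP tagged libraries, whereas MC tagged libraries had 29.3, 31.0 and 30.5 CPM and MC untagged libraries had 28.5, 25.3 and 30.4 CPM. The 3 DASGIP tagged values did not overlap those of either other set. Against Glu-lim, OPT2 rose by 2.44 ± 0.15 (SE, log2) within the DASGIP tagged set (adjusted p = 2.21e-14, edgeR quasi-likelihood test with Benjamini-Hochberg adjustment over all genes). The same difference was 0.06 ± 0.14 within the MC tagged set (adjusted p = 0.756, 95% interval -0.23 to 0.35, same test) and 0.18 ± 0.14 within the MC untagged set (adjusted p = 0.291, interval -0.12 to 0.48). Under Et-lim it differed from Glu-lim by -0.15 ± 0.08 over the sets and was not called (adjusted p = 0.134).

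OPT1 (YJL212C, chromosome X, 33850 to 36249, minus strand, 1 exon) was also at its highest under N-lim, on a smaller scale. N-lim libraries had 244, 192 and 180 CPM (MC tagged), 282, 237 and 327 CPM (DASGIP tagged) and 152, 188 and 158 CPM (MC untagged). Glu-lim libraries had 38.4, 38.4 and 41.7 CPM (MC tagged), 30.7, 28.9 and 32.2 CPM (DASGIP tagged) and 33.1, 35.6 and 30.7 CPM (MC untagged). No N-lim library overlapped a library of another limitation, since the highest of those had 42.7 CPM. The N-lim difference from Glu-lim averaged 2.64 ± 0.07 (SE, log2), the 44th highest of all genes, with 2.38, 3.20 and 2.33 in the MC tagged, DASGIP tagged and MC untagged sets. OPT1 was at its lowest under Et-lim in all 3 sets, with group means of 26.1 ± 0.527, 28.0 ± 3.39 and 23.5 ± 1.79 CPM in that order of sets. The DASGIP tagged Et-lim libraries (30.8, 24.2 and 28.8 CPM) overlapped its Glu-lim libraries. Over the sets OPT1 fell against Glu-lim by 0.41 ± 0.07 on the log2 scale (SE, adjusted p = 1.63e-05, edgeR). Within sets the fall was called in the MC tagged (-0.60, adjusted p = 0.000219) and MC untagged sets (-0.49, adjusted p = 0.00252), while in the DASGIP tagged set the value was -0.13 (adjusted p = 0.442). OxGlu-lim and Glu-lim levels of OPT1 overlapped in every set.

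Promoters of both oligopeptide carrier genes are shown because these genes had N-lim levels apart from all other libraries. The windows run from 250 bases before to 50 bases after the start codon's first base, on the gene's strand, at chrX:36200-36499 for OPT1 and chrXVI:926888-927187 for OPT2 (minus strand of both, R64 genome of RefSeq). Capitals mark GATAAG, the core that GATA factors bind, here read on the other strand as CTTATC.
OPT1: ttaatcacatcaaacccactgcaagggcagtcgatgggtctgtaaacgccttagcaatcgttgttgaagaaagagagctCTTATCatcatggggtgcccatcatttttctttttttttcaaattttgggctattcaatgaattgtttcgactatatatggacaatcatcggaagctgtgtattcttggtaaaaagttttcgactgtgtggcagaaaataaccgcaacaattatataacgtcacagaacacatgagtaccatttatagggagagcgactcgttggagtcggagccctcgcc
OPT2: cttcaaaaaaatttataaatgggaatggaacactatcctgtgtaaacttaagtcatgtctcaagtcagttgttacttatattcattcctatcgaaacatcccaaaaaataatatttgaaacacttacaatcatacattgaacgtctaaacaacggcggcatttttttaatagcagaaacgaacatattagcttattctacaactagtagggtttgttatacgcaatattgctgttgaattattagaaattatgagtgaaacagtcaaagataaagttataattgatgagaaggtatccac
OPT1 held 1 match, between 171 and 166 bases before the start, and 14.7% of 6001 protein-coding promoters held at least 1. The OPT2 window held no match to it, nor to CACGTG (Cbf1p), CTGTGGC (Met31p and Met32p), TGACTCA (Gcn4p) or CGGCTC (Stp1p), each searched on both strands. In a window of 500 bases before the start, chosen after that result was seen, OPT2 held 2 GATAAG matches, starting 411 and 302 bases before the start, and 1 CACGTG match at 497. There 22.8% of 6000 promoters held GATAAG at least once, 3.63% held it at least 2 times, and 6.23% held CACGTG. A match describes letters and not a bound site.

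PTR2 (YKR093W, chromosome XI, 615730 to 617535, plus strand, 1 exon) was high under 2 limitations rather than 1. N-lim libraries had 287, 242 and 397 CPM (MC tagged), 557, 540 and 668 CPM (DASGIP tagged) and 283, 295 and 279 CPM (MC untagged). OxGlu-lim libraries had 218, 204 and 247 CPM (MC tagged), 238, 210 and 147 CPM (DASGIP tagged) and 123, 130 and 127 CPM (MC untagged). Every Et-lim and Glu-lim library lay between 16.4 and 32.3 CPM, below all 18 N-lim and OxGlu-lim libraries. The 2 high limitations overlapped in the MC tagged set only.

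The rise of PTR2 under OxGlu-lim against Glu-lim was 3.06 ± 0.09 (SE, log2; adjusted p = 1.46e-22, edgeR), an 8.32-fold difference and the 41st highest of 6612 genes. It held within the MC tagged set (3.39, adjusted p = 9.47e-17), the DASGIP tagged set (3.02, adjusted p = 7.93e-16) and the MC untagged set (2.76, adjusted p = 4.16e-15). N-lim minus Glu-lim averaged 4.13 ± 0.09, the 12th highest, as a description. Et-lim differed from Glu-lim by 0.13 ± 0.09 (adjusted p = 0.202, interval -0.05 to 0.32). The PTR2 promoter window held none of the 5 motifs, and the 500-base window held 1 GATAAG match, 380 bases before the start.

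Per kilobase of coding sequence OPT2 dominated the 3 carriers under N-lim only. It made up 84.8 ± 2.19% of their summed CPM per kilobase in MC tagged, 76.7 ± 2.56% in DASGIP tagged and 86.1 ± 1.30% in MC untagged N-lim libraries. Under the other limitations its group mean share lay between 7.64% in MC tagged OxGlu-lim and 30.5% in MC tagged Et-lim. The summed level of the carriers was 1706 ± 312, 1915 ± 295 and 1635 ± 69.1 CPM per kilobase under N-lim, against 39.2 ± 1.55, 35.6 ± 2.07 and 33.6 ± 1.63 CPM per kilobase under Glu-lim, each in the MC tagged, DASGIP tagged and MC untagged sets. Set against the summed level of the 3 DUG genes, the carriers stood 9.52 ± 1.37, 9.57 ± 0.669 and 9.64 ± 0.751 times as high under N-lim in those sets. Under Glu-lim that ratio was 0.254 ± 0.0149, 0.262 ± 0.00942 and 0.248 ± 0.0196.

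**Figure D2:**
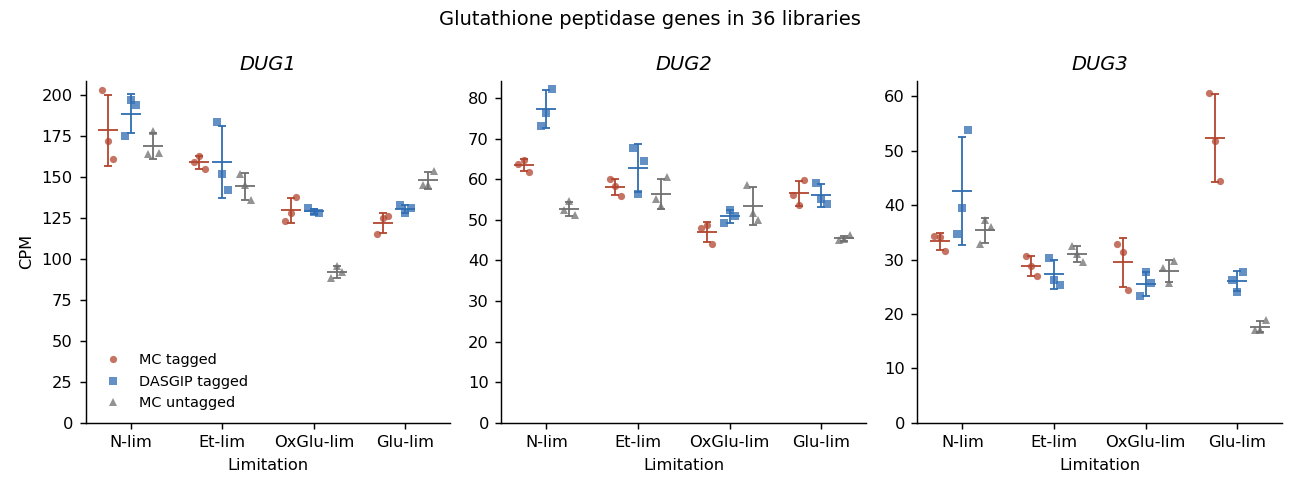
CPM of DUG1, DUG2 and DUG3 on linear axes that start at 0, in each of the 36 libraries, by limitation and set (circles MC tagged, squares DASGIP tagged, triangles MC untagged). Bars are means with SD of 3 libraries; DUG3 in MC tagged Glu-lim libraries, at 44.4 to 60.6 CPM, lies above both other sets at that limitation.

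The genes that break glutathione down moved far less than the carriers. Across the 12 group means DUG1 spanned 2.04-fold, DUG2 1.70-fold and DUG3 2.97-fold, against 12-fold for OPT1, 31.4-fold for PTR2 and 175-fold for OPT2. The 3 promoters are shown because each held CTGTGGC, the sequence bound by Met31p and Met32p, the DNA-binding partners of the sulphur activator Met4p. Windows are as above, at chrVI:241388-241687 (DUG1, minus strand), chrII:767557-767856 (DUG2, minus strand) and chrXIV:280182-280481 (DUG3, plus strand). Capitals mark CTGTGGC, which DUG1 holds on the other strand as GCCACAG, and in DUG1 also GATAAG as CTTATC.
DUG1: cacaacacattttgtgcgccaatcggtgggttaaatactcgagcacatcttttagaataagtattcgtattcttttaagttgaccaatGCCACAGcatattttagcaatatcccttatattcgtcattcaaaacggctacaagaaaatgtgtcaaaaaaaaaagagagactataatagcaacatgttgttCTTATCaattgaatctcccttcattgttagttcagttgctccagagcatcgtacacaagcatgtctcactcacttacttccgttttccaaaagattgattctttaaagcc
DUG2: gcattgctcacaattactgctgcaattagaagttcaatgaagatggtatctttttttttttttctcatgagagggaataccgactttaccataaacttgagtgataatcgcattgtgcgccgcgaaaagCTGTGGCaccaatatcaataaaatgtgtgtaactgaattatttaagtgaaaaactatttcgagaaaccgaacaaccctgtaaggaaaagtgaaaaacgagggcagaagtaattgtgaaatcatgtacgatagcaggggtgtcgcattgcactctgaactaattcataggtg
DUG3: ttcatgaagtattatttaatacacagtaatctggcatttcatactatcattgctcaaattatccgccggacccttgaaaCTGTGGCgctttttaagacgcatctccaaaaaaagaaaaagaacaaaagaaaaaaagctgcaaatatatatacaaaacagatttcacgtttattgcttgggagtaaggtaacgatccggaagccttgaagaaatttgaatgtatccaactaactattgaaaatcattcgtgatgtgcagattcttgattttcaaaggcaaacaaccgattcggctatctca
The CTGTGGC match started 162 bases before the start in DUG1, 121 in DUG2 and 171 in DUG3. Of the 6001 protein-coding promoters, 1.92% held it, and OPT1, OPT2 and PTR2 did not. GATAAG occurred once in DUG1, starting 60 bases before the start. No member window held the Cbf1p, Gcn4p or Stp1p motif, which 2.92%, 2.73% and 3.12% of promoters held.

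DUG1 (YFR044C, chromosome VI, 239992 to 241437, minus strand, 1 exon) was the most abundant of the 3 per kilobase. Group means ran between 63.7 ± 2.43 CPM per kilobase in MC untagged OxGlu-lim and 130 ± 8.28 CPM per kilobase in DASGIP tagged N-lim. N-lim libraries had 203, 172 and 161 CPM (MC tagged), 175, 197 and 194 CPM (DASGIP tagged) and 164, 178 and 165 CPM (MC untagged). Glu-lim libraries had 115, 125 and 126 CPM (MC tagged), 133, 128 and 131 CPM (DASGIP tagged) and 145, 145 and 154 CPM (MC untagged). N-lim and Glu-lim libraries did not overlap in any set, and the mean difference was 0.43 ± 0.05 (SE, log2). Under Et-lim DUG1 rose by 0.21 ± 0.05 against Glu-lim (adjusted p = 0.000286, edgeR), which held within the tagged sets (0.39 in MC, adjusted p = 0.000288, and 0.29 in DASGIP, adjusted p = 0.00703) and not in the MC untagged set (-0.04, adjusted p = 0.749). The DASGIP tagged call rested on 1 library, since without Et-lim replicate 1 (184 CPM) the value was 0.17 (adjusted p = 0.0935).

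Under OxGlu-lim DUG1 fell by 0.20 ± 0.05 on the log2 scale against Glu-lim over the sets (adjusted p = 0.000392, edgeR), and the MC untagged set alone was called. There it had 88.6, 95.6 and 92.0 CPM under OxGlu-lim, against 145, 145 and 154 CPM under Glu-lim, a difference of -0.68 ± 0.08 (adjusted p = 2.7e-08). In the MC tagged set the difference was 0.09 ± 0.08 (adjusted p = 0.376) and in the DASGIP tagged set -0.01 ± 0.08 (adjusted p = 0.913). No OxGlu-lim library of the MC untagged set reached the lowest library of any other group.

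DUG2 (YBR281C, chromosome II, 764970 to 767606, minus strand, 1 exon) was the steadiest member, with group means of 45.5 ± 0.61 to 77.2 ± 4.66 CPM. The lowest group was MC untagged Glu-lim (45.1, 45.2 and 46.2 CPM) and the highest DASGIP tagged N-lim (73.1, 76.3 and 82.3 CPM). Et-lim was above Glu-lim by 0.17 ± 0.04 (SE, log2; adjusted p = 0.000804, edgeR), which was called within the MC untagged set only (0.31, adjusted p = 0.00113). OxGlu-lim minus Glu-lim differed in sign between sets, at -0.27 in the MC tagged set (adjusted p = 0.00299) and 0.23 in the MC untagged set (adjusted p = 0.00712), with -0.14 in the DASGIP tagged set (adjusted p = 0.112). Without MC untagged OxGlu-lim replicate 1 the MC untagged value was 0.16 (adjusted p = 0.0852).

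DUG3 (YNL191W, chromosome XIV, 280432 to 281505, plus strand, 1 exon) ordered the limitations differently in the MC tagged set. Under Glu-lim it stood at 60.6, 51.8 and 44.4 CPM in MC tagged libraries, 26.2, 24.1 and 27.7 CPM in DASGIP tagged libraries and 17.1, 17.0 and 18.8 CPM in MC untagged libraries. The 3 sets did not overlap there, and Glu-lim was the highest limitation in the MC tagged set and the lowest in the MC untagged set. Under N-lim the same sets had 34.4, 34.1 and 31.5 CPM, then 34.6, 39.4 and 53.8 CPM, then 32.9, 37.3 and 35.9 CPM. Under Et-lim group means were 28.8 ± 1.80, 27.3 ± 2.65 and 31.0 ± 1.39 CPM and under OxGlu-lim 29.5 ± 4.47, 25.5 ± 2.22 and 27.9 ± 2.04 CPM, in the MC tagged, DASGIP tagged and MC untagged sets.

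Against Glu-lim, DUG3 under Et-lim fell by 0.86 on the log2 scale in the MC tagged set (adjusted p = 1.96e-06, edgeR) and rose by 0.81 in the MC untagged set (adjusted p = 1.1e-05). OxGlu-lim minus Glu-lim was -0.83 in the MC tagged set (adjusted p = 3.02e-06) and 0.67 in the MC untagged set (adjusted p = 7.38e-05). In the DASGIP tagged set neither was called, at 0.07 (adjusted p = 0.691) and -0.03 (adjusted p = 0.895). Averaged over sets the differences were 0.01 ± 0.07 for Et-lim (adjusted p = 0.916) and -0.06 ± 0.07 for OxGlu-lim (adjusted p = 0.475), means of opposite signs. N-lim minus Glu-lim was -0.65 ± 0.12 in the MC tagged set, 0.71 ± 0.13 in the DASGIP tagged set and 1.01 ± 0.13 in the MC untagged set (SE, description).

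Dug2p and Dug3p work together, and the ratio of their transcripts per kilobase changed with DUG3. DUG2 over DUG3 was 0.449 ± 0.089 in MC tagged Glu-lim libraries, 0.882 ± 0.0797 in DASGIP tagged Glu-lim libraries and 1.05 ± 0.0445 in MC untagged Glu-lim libraries. In the other 9 groups it lay between 0.608 and 0.940. DUG1 over DUG2 lay between 3.17 and 5.92 in all groups, on the same per-kilobase scale.

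**Figure D3:**
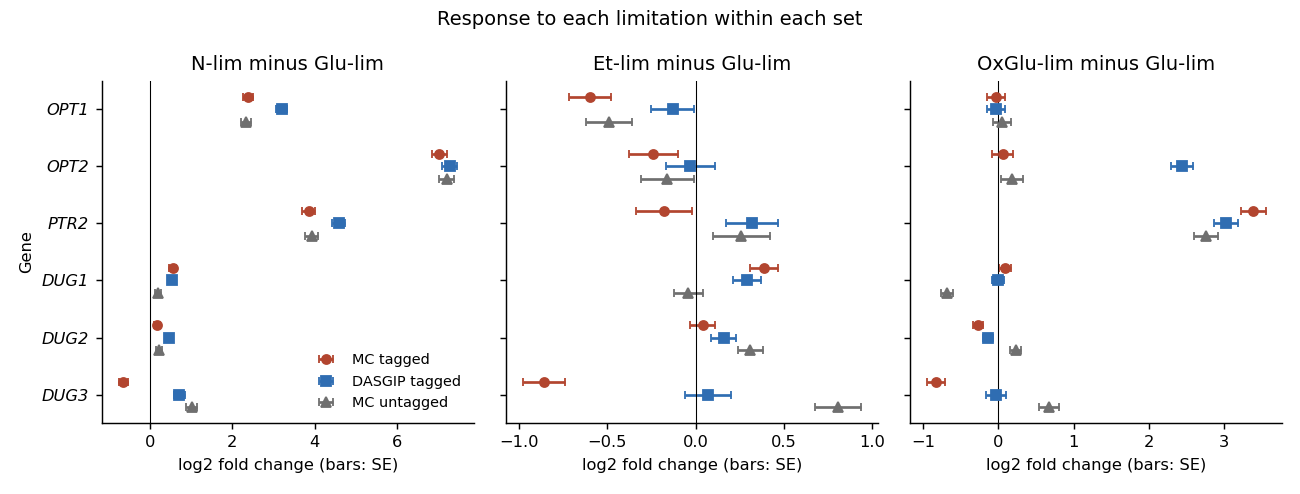
Log2 fold change (x axis, bars are SE) of each member under N-lim, Et-lim and OxGlu-lim minus Glu-lim, within each set (circles MC tagged, squares DASGIP tagged, triangles MC untagged); x scales differ between panels. OPT2 under OxGlu-lim departs from 0 in the DASGIP tagged set (2.44), and DUG3 has opposite signs in the MC tagged and MC untagged sets.

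Over the sets 3 of the 6 members were called for Et-lim minus Glu-lim, DUG1 and DUG2 higher and OPT1 lower, where 59.3% of all genes tested were called. For OxGlu-lim minus Glu-lim 3 of 6 were called, OPT2 and PTR2 higher and DUG1 lower, where 65.2% of all genes were. The comparison of Et-lim with OxGlu-lim called 5 of 6, where 71.7% of all genes were called. There PTR2 was lower under Et-lim by 2.92 ± 0.09 on the log2 scale (SE, adjusted p = 1.42e-22, edgeR), and DUG1 was higher by 0.41 ± 0.05 (adjusted p = 4.33e-09). Within single sets, Et-lim minus Glu-lim called 3 of 6 members in MC tagged, 1 of 6 in DASGIP tagged and 3 of 6 in MC untagged cultures, where 46.6%, 32.3% and 37.8% of all genes were called. OxGlu-lim minus Glu-lim called 3, 2 and 4 of 6 in those sets, where 45.1%, 44.4% and 58.3% of all genes were called. The shares of members were not set apart from those of all genes by any test. Comparisons with Glu-lim share its libraries.

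**Figure D4:**
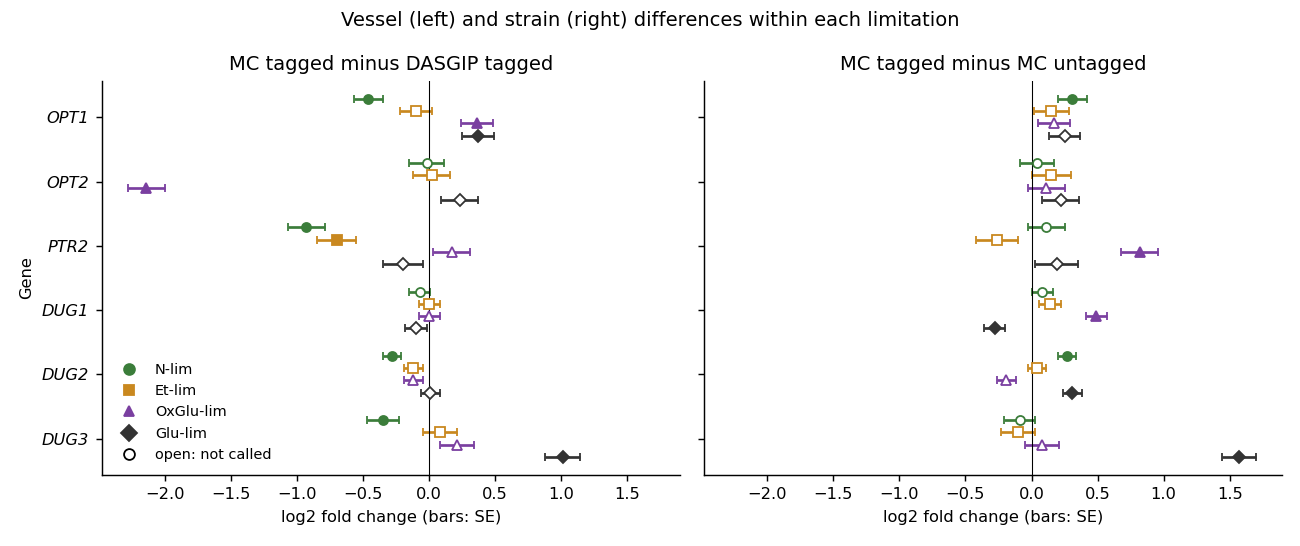
Log2 fold change (x axis, bars are SE) of each member in MC tagged minus DASGIP tagged libraries (left panel, vessel) and MC tagged minus MC untagged libraries (right panel, strain), within each limitation; filled symbols passed an adjusted p of 0.05. OPT2 under OxGlu-lim (-2.14, left) and DUG3 under Glu-lim (1.01 left, 1.57 right) lie farthest from 0.

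The vessel comparison set the same tagged strain in MC vessels against DASGIP vessels. Averaged over limitations 4 of 6 members were called, OPT2, PTR2 and DUG2 lower and DUG3 higher in MC vessels, where 34.4% of all genes were called. OPT2 under OxGlu-lim was 4.42-fold lower in MC vessels (-2.14 ± 0.14, SE, log2; adjusted p = 2.16e-11, edgeR), the 4th lowest value of 6612 genes. Under the other 3 limitations OPT2 was not called, at -0.02 for N-lim (adjusted p = 0.932), 0.02 for Et-lim (0.954) and 0.23 for Glu-lim (0.260). PTR2 was lower in MC vessels under N-lim (-0.93 ± 0.14, adjusted p = 2.01e-05) and Et-lim (-0.70 ± 0.15, adjusted p = 0.00259), and at 0.17 ± 0.14 under OxGlu-lim (adjusted p = 0.440). PTR2 under Et-lim had 20.8, 18.3 and 17.0 CPM in MC tagged libraries, against 29.2, 32.3 and 30.1 CPM in DASGIP tagged libraries. DUG3 under Glu-lim was higher in MC vessels by 1.01 ± 0.13 (adjusted p = 2.47e-06). The DUG3 average over limitations, 0.24 ± 0.06, is a mean of opposite signs, since the N-lim value was -0.35 ± 0.12. Single limitations called 4 of 6 members under N-lim, 1 under Et-lim, 2 under OxGlu-lim and 2 under Glu-lim, where 18.3%, 11.8%, 17.6% and 21.1% of all genes were called.

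Tests of whether the vessel difference varied with the limitation called 4 of 6 members, where 24.1% of all genes were called. They were OPT2 (adjusted p = 2.92e-09, edgeR F test), DUG3 (2.26e-05), PTR2 (0.00062) and OPT1 (0.000872), with DUG1 (0.805) and DUG2 (0.135) not called. OPT1 was lower in MC vessels under N-lim (-0.46, adjusted p = 0.00535) and higher under OxGlu-lim (0.36, 0.0384) and Glu-lim (0.37, 0.0299). Those single-limitation calls of OPT1 were lost without certain libraries, without DASGIP tagged N-lim replicate 3 (-0.34, adjusted p = 0.054), without any 1 of the 6 Glu-lim libraries compared (0.33 to 0.41, adjusted p 0.051 to 0.0983) and without any 1 of 4 of the OxGlu-lim libraries (0.28 to 0.35, adjusted p 0.0857 to 0.192). DUG2 was lower in MC vessels under N-lim (-0.28, adjusted p = 0.00532). DUG3 was also lower there (-0.35, adjusted p = 0.0454), a call lost without any 1 of 12 libraries, at -0.15 (adjusted p = 0.407) without DASGIP tagged N-lim replicate 3. No batch, date or lane is given, so vessel or strain and any batch that ran with a set cannot be told apart.

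The tagged and untagged strains were compared in MC vessels. Averaged over the limitations 4 of 6 members were called, all with a higher mean in the tagged strain, where 18.1% of all genes were called. They were DUG3 (0.36 ± 0.06, SE, log2; adjusted p = 0.000204, edgeR), OPT1 (0.22 ± 0.06, 0.0123), DUG2 (0.11 ± 0.04, 0.0338) and PTR2 (0.21 ± 0.07, 0.0425). The last 2 calls were lost without any 1 of 10 libraries for DUG2 and of 16 for PTR2 (values 0.10 to 0.11 and 0.16 to 0.22). Their means also mixed signs. DUG2 was at 0.31 under Glu-lim and -0.19 under OxGlu-lim, and PTR2 at 0.82 under OxGlu-lim and -0.26 under Et-lim. Neither negative value was called. DUG3 under Glu-lim was 2.97-fold higher in the tagged strain (1.57 ± 0.13, adjusted p = 4.12e-10), the 19th highest of 6612 genes, and under the other limitations lay between -0.10 and 0.08, none of them called.

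PTR2 was higher in the tagged strain under OxGlu-lim (0.82 ± 0.14, adjusted p = 0.000172, edgeR), as was DUG1 (0.49 ± 0.08, adjusted p = 9.96e-05). Under Glu-lim DUG1 was lower in the tagged strain (-0.28, adjusted p = 0.0143), a call lost if either replicate 1 of the tagged or replicate 3 of the untagged strain was left out (-0.25 to -0.24), and DUG2 was higher (0.31, adjusted p = 0.00289). Under N-lim OPT1 (0.31, adjusted p = 0.0396) and DUG2 (0.27, adjusted p = 0.00532) were higher in the tagged strain. The OPT1 call was lost without MC tagged replicate 1 or MC untagged replicate 1 or 3 (0.16 to 0.27). Single limitations called 2 of 6 members under N-lim, 2 under OxGlu-lim and 3 under Glu-lim, where 32.4%, 24.1% and 22.5% of all genes were called. Under Et-lim edgeR called 0 of 6, where 0.272% of all genes were called, with 0 members at an unadjusted p under 0.05 and 0 called by DESeq2. OPT2 was called under no limitation in the model of all groups, and its mean difference was 0.13 ± 0.07 (adjusted p = 0.209, interval -0.02 to 0.28). With only the groups compared in the fit, it was called under Glu-lim (0.27, adjusted p = 0.0413, edgeR), against 0.22 (adjusted p = 0.269) in the model of all groups.

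A change of the strain difference with the limitation was called for 4 of 6 members, where 47.7% of all genes were called. They were DUG3 (adjusted p = 8.95e-08, edgeR F test), DUG1 (9.35e-05), DUG2 (0.000818) and PTR2 (0.00137), with OPT1 (0.789) and OPT2 (0.852) not called. The vessel and strain comparisons share the MC tagged libraries.

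Genes that govern or surround these members came from lists chosen by function. The repressor Cup9p is known to hold PTR2 down, and imported dipeptides speed its breakdown through the ubiquitin ligase Ubr1p. Amino acids outside the cell raise PTR2 through the SPS sensor, Stp1p and Stp2p. Under OxGlu-lim 4 of these 11 genes rose and 4 fell against Glu-lim (median -0.05, all genes 0.01, where 32.9% of genes were called higher and 32.3% lower). CUP9 fell by 0.96 ± 0.05 on the log2 scale (SE, adjusted p = 1.22e-15, edgeR) and STP2 by 0.64 ± 0.04, while CYC8, a co-repressor subunit, rose by 0.31 ± 0.05. CUP9 group means are given for the MC tagged, DASGIP tagged and MC untagged sets in that order. They were 63.8 ± 8.50, 45.4 ± 3.57 and 47.9 ± 1.87 CPM under OxGlu-lim, against 111 ± 5.57, 89.8 ± 12.5 and 102 ± 3.88 CPM under Glu-lim. Under N-lim, where PTR2 was highest in every set, CUP9 had 96.0 ± 9.51, 74.3 ± 4.68 and 83.0 ± 6.75 CPM. Et-lim libraries had 122 ± 7.63, 120 ± 6.16 and 121 ± 3.06 CPM of CUP9. Under N-lim 8 of 11 rose and 1 fell (median 0.44), led by DAL81 at 0.74, TUP1 at 0.62 and CYC8 at 0.58, where 34.3% of all genes rose and 37.4% fell. Under Et-lim 4 rose and 2 fell, where 30.6% of all genes rose and 28.7% fell.

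CUP9 was also compared between vessels and strains, and a link of its RNA to PTR2 was not tested. CUP9 was higher in MC tagged than in DASGIP tagged N-lim libraries (0.37 ± 0.09, SE, log2; adjusted p = 0.00562, edgeR), where PTR2 was lower. It was also higher in the tagged than in the untagged strain under OxGlu-lim (0.41 ± 0.10, adjusted p = 0.00229), where PTR2 was higher too.

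The GATA factors carry the signal of poor nitrogen supply, Gat1p as an activator and Dal80p as a repressor of the same genes. Of 5 listed genes 2 rose and 1 fell under N-lim against Glu-lim, DAL80 by 7.12 ± 0.15 and GAT1 by 1.75 ± 0.07 (SE, log2), and URE2 at -0.23. Under OxGlu-lim 1 rose and 3 fell, with DAL80 at 2.15 ± 0.16 and GAT1 at -1.13 ± 0.07, and under Et-lim 2 rose and 2 fell, with DAL80 at 1.06 and GAT1 at 0.28. Among all genes 34.3% rose and 37.4% fell under N-lim, 32.9% and 32.3% under OxGlu-lim, and 30.6% and 28.7% under Et-lim. The vessel comparison under OxGlu-lim called 1 of the 5 listed genes higher and 1 lower, with 3 not called, where 17.6% of all genes were called. GAT1 was lower in MC tagged than in DASGIP tagged libraries (32.4 ± 5.69 against 51.1 ± 8.21 CPM; -0.66 ± 0.13, adjusted p = 0.00065, edgeR) and DAL80 was higher (17.5 ± 3.12 against 7.70 ± 2.84 CPM; 1.21 ± 0.23, adjusted p = 0.000501). OPT2 also differed there, and a link to these genes was not tested.

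Among other carriers of peptides or glutathione (4 of 5 tested, GEX1 not passing the filter), 2 rose and 1 fell under N-lim. DAL5, an allantoate permease that also carries dipeptides, differed by 7.07 ± 0.12 (SE, log2). YCF1, which moves glutathione conjugates into the vacuole, rose by 0.58 ± 0.04 and BPT1, which does likewise, fell by 0.39 ± 0.05. DAL5 did not share the OPT2 pattern in DASGIP tagged OxGlu-lim libraries, where it had 26.8 ± 2.63 CPM, against 25.5 ± 1.71 CPM under Glu-lim. Under OxGlu-lim 0 rose and 2 fell, and under Et-lim 2 rose and 0 fell. Shares of all genes higher and lower were 34.3% and 37.4% under N-lim, 32.9% and 32.3% under OxGlu-lim, and 30.6% and 28.7% under Et-lim.

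Of the listed genes that make, recycle or spend glutathione, more fell than rose in each comparison with Glu-lim. Of 14, 1 rose and 10 fell under OxGlu-lim against Glu-lim (median -0.71, all genes 0.01), among them the glutathione transferase GTT1 at -2.37 ± 0.11, the peroxidase GPX1 at -1.91 ± 0.13 and the glutaredoxin GRX2 at -1.18 ± 0.08 (SE, log2). Under N-lim 3 rose and 7 fell, and under Et-lim 2 rose and 9 fell. All genes rose and fell at 32.9% and 32.3% under OxGlu-lim, 34.3% and 37.4% under N-lim, and 30.6% and 28.7% under Et-lim. The synthesis gene GSH1 had 210, 188 and 187 CPM under OxGlu-lim, against 208, 190 and 191 CPM under Glu-lim (MC tagged, DASGIP tagged, MC untagged). It had 150, 146 and 154 CPM under Et-lim and 229, 233 and 214 CPM under N-lim. The recycling gene GLR1 had 125, 134 and 113 CPM under N-lim, against 81.6, 83.7 and 88.3 CPM under Glu-lim. GLR1 was also high under Et-lim (123, 109 and 106 CPM), and had 81.9, 83.0 and 73.4 CPM under OxGlu-lim. ECM38, whose product cuts glutathione by the other route, at the vacuole, rose under N-lim by 1.52 ± 0.06 (SE, log2), with group means of 215 ± 22.9, 214 ± 3.11 and 190 ± 10.5 CPM, against 67.8 ± 1.69, 85.7 ± 5.28 and 64.2 ± 3.66 CPM under Glu-lim, in the MC tagged, DASGIP tagged and MC untagged sets. The 3 DUG genes differed by 0.28 to 0.43 in the same comparison. For DUG3 that is a mean of opposite signs, -0.65, 0.71 and 1.01 in those sets.

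Of 13 other peptidases, 7 rose and 4 fell under N-lim (median 0.63), led by the vacuolar carboxypeptidase CPS1 at 2.99 ± 0.06, the aminopeptidase LAP3 at 1.02 ± 0.06 and the vacuolar proteinase PRB1 at 0.93 ± 0.08 (SE, log2). Under OxGlu-lim 1 rose and 11 fell (median -0.36), with CPS1 at -0.86 ± 0.06, and under Et-lim 5 rose and 2 fell. For all genes the shares that rose and fell were 34.3% and 37.4% under N-lim, 32.9% and 32.3% under OxGlu-lim, and 30.6% and 28.7% under Et-lim. In the tagged against the untagged strain 8 of 13 were lower under Glu-lim and 8 of 13 higher under OxGlu-lim, where 14.4% and 12.3% of all genes were called in those directions. PRB1 stood at -0.53 under Glu-lim and at 0.57 under OxGlu-lim.

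Regulators of sulphur genes were compared where DUG3 differed. In the tagged against the untagged strain under Glu-lim 2 of 6 were higher and 1 lower, MET32 by 0.92 ± 0.14 (SE, log2; adjusted p = 6.96e-05, edgeR), MET31 by 0.47 ± 0.16 and MET4 at -0.18 ± 0.06, where 8.17% of all genes were higher and 14.4% lower. MET32 had 36.4 ± 5.75 CPM in MC tagged, 23.4 ± 2.50 CPM in DASGIP tagged and 19.2 ± 2.29 CPM in MC untagged Glu-lim libraries. Against DASGIP tagged libraries MET32 was higher by 0.64 ± 0.14 (adjusted p = 0.00211) and MET30 by 0.45 ± 0.11, while CBF1 was at -0.31 ± 0.11. Over the 3 sets 1 rose and 4 fell under N-lim, 0 rose and 3 fell under OxGlu-lim, and 1 rose and 2 fell under Et-lim. The shares of all genes that rose and fell were 34.3% and 37.4%, 32.9% and 32.3%, and 30.6% and 28.7%, in that order. Of the MATa markers, 5 of 5 rose in each of the 3 comparisons with Glu-lim, and of the 3 MATalpha markers 2 rose under OxGlu-lim and 1 under each of N-lim and Et-lim, with 1 lower each time.

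Likeness to each member was measured as Pearson's r of mean log2 CPM over the 12 groups, which share libraries and depth. The groups include those of N-lim, and the members were selected with measured levels known, so r is a description. OPT1 was most like DAL7 (0.987), YIL168W (0.986) and YIR030W-A (0.986). OPT2 was most like THO1 (0.989), VMA4 (0.985) and ASE1 (0.985), whose group means spanned 2.02-fold, 2.64-fold and 2.92-fold against 175-fold for OPT2. PTR2 was most like PHD1 (0.969), MGS1 (0.964) and MSN4 (0.963), DUG1 like RPN12 (0.953), NAM8 (0.945) and VPS25 (0.939), and DUG2 like APL5 (0.91), GET1 (0.907) and SPP382 (0.885). DUG3 was most like MET8 (0.85), YDR239C (0.814) and MET2 (0.805). MET8, which helps make the sirohaem of sulphite reductase, had 33.0 ± 3.78 CPM in MC tagged, 18.8 ± 1.68 CPM in DASGIP tagged and 18.6 ± 1.19 CPM in MC untagged Glu-lim libraries. MET2, which makes O-acetylhomoserine, had 210 ± 17.8, 134 ± 3.93 and 112 ± 5.69 CPM in those groups. YDR239C, whose group means spanned 1.2-fold, had 39.7 ± 2.14, 34.1 ± 3.89 and 33.0 ± 0.854 CPM there. A link of DUG3 to sulphur genes was not tested. Between members r was 0.96 for OPT1 with OPT2, 0.80 for OPT2 with PTR2, 0.77 for OPT1 with PTR2, and 0.63 or less for every other pair. OPT1, OPT2 and PTR2 were each highest under N-lim, and those groups weigh heavily in r between them. Outside N-lim OPT1 and OPT2 could part. OxGlu-lim minus Glu-lim in the DASGIP tagged set was -0.03 for OPT1 and 2.44 for OPT2.

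Position was compared as well, since 5 of the 6 genes lie 21.1 to 49.3 kb from a chromosome end and DUG3 lies 280 kb from one. Next to OPT2, YPR195C upstream differed between N-lim and Glu-lim by 1.48 (log2) and HPA2 downstream by -2.07, against 7.19 for OPT2. Beside PTR2 the values were -0.11 for SRP40 and 0.21 for RPL40B, and beside OPT1 they were -1.59 for PEX2 and 1.66 for YJL213W. In the tagged against the untagged strain under Glu-lim, CHS1 upstream of DUG3 stood at -0.63 (adjusted p = 0.000325, edgeR) and YNL190W downstream at -0.18 (adjusted p = 0.146), against 1.57 for DUG3. No gene annotated in RefSeq overlaps a member.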

How the data were processed

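RNA came from RNeasy columns, and strand-marking library preparation followed depletion of ribosomal RNA, per the labels' protocols. Bowtie2, SAMtools, bedtools and genome build R64 are the tools and build that the submitters' processing notes list, with no version given. The deposited tables hold whole numbers for each gene and library, taken from their values as read counts that the authors had not normalised. How reads were assigned to genes, and whether strand was used, is not given in the sources used here, so reads from antisense transcripts could enter a value. CEN.PK sequence differs from R64, which was read from another strain. The tables have 7122 gene lines that were used, and 4 lines not analysed here. The design text states biological triplicates.

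Counts were tested with edgeR 4.0.16 (quasi-likelihood F test) in R 4.3.3, in 1 model with a mean for each of 12 groups, TMM factors and filterByExpr. This kept 6612 genes, with 24 residual degrees of freedom. P-values were adjusted by Benjamini-Hochberg over all genes, with a threshold of 0.05 for a call; intervals are 95%. DESeq2 1.42.0, upper-quartile factors, nuclear library sizes, other filters, fits of only the groups compared, a replicate block and leaving out each library were tried. The fit was tested on simulated data. No 2 libraries of a group agreed within sampling noise (chi-square per degree of freedom 5.39 to 152). Members, gene lists, motifs and the rule for naming listed genes (up to 3 called genes with the largest change per list and comparison; for likeness the 3 with the highest r) were chosen with earlier results of these data known, so a list's direction is no independent evidence. Group values of CUP9, DAL5, DAL80, GAT1, ECM38, MET32, MET8, MET2 and YDR239C, and those of neighbouring genes, were chosen for their place beside a member. Those of GSH1 and GLR1 were given to show synthesis and recycling.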

Additional observations from a re-analysis of the deposited data

Results flagged for a closer look

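For 4 members the difference between MC tagged and DASGIP tagged cultures changed with the limitation, by the test of that change itself, which called 24.1% of all genes. The adjusted p (edgeR F test, Benjamini-Hochberg over all genes) was 2.92e-09 for OPT2, 2.26e-05 for DUG3, 0.00062 for PTR2 and 0.000872 for OPT1. OPT2 was -2.14 under OxGlu-lim and between -0.02 and 0.23 under the other limitations (log2, 3 libraries a group). DUG3 was 1.01 under Glu-lim and -0.35 under N-lim.

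For 4 members the difference between MC tagged and MC untagged cultures changed with the limitation, in a test that called 47.7% of all genes. The adjusted p (same test) was 8.95e-08 for DUG3, 9.35e-05 for DUG1, 0.000818 for DUG2 and 0.00137 for PTR2. DUG3 was 1.57 under Glu-lim and between -0.10 and 0.08 elsewhere. DUG1 was 0.49 under OxGlu-lim and -0.28 under Glu-lim, and PTR2 was 0.82 under OxGlu-lim and -0.26 under Et-lim (the last with adjusted p = 0.577).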

How the results depend on the processing

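Of 59 calls of members, 48 kept direction and threshold under every alternative run, 11 were lost under at least 1 and none reversed. Of these 11, 3 were lost only by leaving out a library. Some counts of genes called moved by over 1.5 times, and the cause was not tested. For MC tagged minus DASGIP tagged, fitting only the groups compared gave 287 genes under N-lim, 422 under Et-lim and 391 under OxGlu-lim (1211, 782 and 1166 in the model of all groups) and 1043 for the difference between limitations (1593). For MC tagged minus MC untagged it gave 1212 under N-lim, 36 under Et-lim and 871 under OxGlu-lim (2144, 18 and 1592), and DESeq2 gave 94 under Et-lim. Leaving out 1 library gave 466 to 986 genes (vessel, Et-lim), 737 to 1341 (vessel, OxGlu-lim), 838 to 1616 (vessel, Glu-lim), 12 to 69 (strain, Et-lim), 893 to 1903 (strain, OxGlu-lim) and 858 to 1683 (strain, Glu-lim). Fitting only the groups compared lost, for the vessel, OPT1 (-0.45, adjusted p = 0.136), DUG2 (-0.27, 0.0937) and DUG3 (-0.34, 0.252) under N-lim and OPT1 under OxGlu-lim (0.36, 0.132), for the strain OPT1 under N-lim (0.31, 0.139), and DUG1 for Et-lim in DASGIP tagged libraries (0.28, 0.0946). The log2 fold changes reported for them were -0.46, -0.28, -0.35, 0.36, 0.31 and 0.29, in that order. Upper-quartile factors lost DUG1 for the strain under Glu-lim (-0.19, 0.0771), and nuclear library sizes lost DUG3 for the vessel under N-lim (0.0519). DUG1 for the strain over limitations, at adjusted p = 0.0547, passed under 4 alternatives (0.0120 to 0.0341). Fitting only the groups compared also gained OPT2 for Et-lim over the sets (-0.15, 0.0111) and in MC tagged libraries (-0.27, 0.0133), PTR2 for Et-lim in DASGIP tagged libraries (0.32, 0.0427), and under Glu-lim OPT2 for the vessel (0.26, 0.0495), OPT2 for the strain (0.27, 0.0413) and OPT1 for the strain (0.31, 0.0106). OPT1 for the strain under Glu-lim was also gained with upper-quartile factors (0.34, 0.0383), DUG2 for Et-lim in DASGIP tagged libraries with nuclear library sizes (0.18, 0.0496) and DUG2 for the strain under OxGlu-lim with a filter of 5 CPM (-0.19, 0.0488). For N-lim minus Glu-lim, leaving out 1 library gave 7.13 to 7.23 for OPT2.

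Replicate numbers did not pair the samples. Of 78 same-numbered pairs of groups, 9 had correlated deviations over 0.1 and 10 under -0.1 (median 0.009). A library was closest to its own number in 57 of 156 cases (36.5%), where each group held 3 numbers. A replicate block changed counts of calls to 0.939 to 1.01 times those reported and lost PTR2 for the strain over limitations (0.21, adjusted p = 0.0520) and DUG3 for the vessel under N-lim (-0.35, 0.0530). The lowest count of a member in a library was 262. For single members counting error and the spread between libraries were not separated. Over all genes, libraries of a group differed by more than sampling noise (chi-square per degree of freedom 5.39 to 152).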
